A study of Mus musculus with 24 samples.

Results

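The translation initiation and elongation factors were followed in CD4+ T cells from WT mice and from mice whose T cells lack BAF180. They were chosen by name: every probe whose deposited symbol begins with Eif or Eef was taken, and the kinases of eIF2 (Eif2ak symbols) were left out. This gave 87 of the 25697 probes on the array, under 51 deposited symbols that stand for 50 genes in current naming. A probe was kept when its detection p was at most 0.02 on at least 1 of 24 arrays, which left 68 probes of 41 genes among 14246 kept probes in all. The other 9 genes, Ago1, Eif1ax, Eif2s1, Eif2s3y, Eif3e, Eif3j1, Eif4ebp3, Eif5a2 and Eif5b, had no probe above this limit and no level is given for them. Of the 41 genes, 31 were detected on all 24 arrays, and Ago4, Eif4e1b, Eef1a2 and Eef2k were detected on fewer than 6. The old symbols Eif2c belong to the Argonaute genes (Ago1 to Ago4), which act in microRNA silencing and not in initiation, and these are described apart.

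Initiation factors bring the small ribosomal subunit and the initiator tRNA to the start codon of an mRNA. The cap-binding factor eIF4E, the scaffold eIF4G and the helicase eIF4A open the 5′ end of the mRNA, eIF2 carries the initiator tRNA and is recharged by eIF2B, and eIF3 holds the complex together. The 4E-BP proteins (Eif4ebp genes) block eIF4E until they are phosphorylated by the mTOR pathway, and the elongation factors eEF1 and eEF2 deliver aminoacyl-tRNA and move the ribosome along the message. A resting naïve T cell makes little protein, and it enlarges and raises its protein synthesis after the T cell receptor is engaged.

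BAF180, encoded by Pbrm1, is a subunit of the PBAF form of the SWI/SNF chromatin remodeling enzyme. The deficient (KO) mice carried a floxed Pbrm1 allele that is deleted by Cre under a CD4 promoter, so that thymocytes and their progeny lose the gene while other tissues keep it. Whether the WT mice carried the Cre or the floxed allele is not given in the sources used here. The labels call mice of both genotypes Balb/c and 4 to 6 weeks old, while the study's methods state that the mice carrying the BAF180 allele had a mixed background before the cross with the CD4-Cre line; whether WT and KO mice shared a background cannot be told from either source. Resting Naïve cells were CD4+CD62L+ cells of spleen and lymph nodes, purified to 95%. Stimulated Naïve cells had been kept for 24 h with anti-CD3 (1 µg/ml) and anti-CD28 (2 µg/ml). Resting Th2 cells had been plated on the same antibodies with IL-4 (10 ng/ml) and anti-IFN-γ (10 µg/ml), then given IL-2 (100 U/ml). Stimulated Th2 cells had in addition received PMA (50 ng/ml) and ionomycin (500 ng/ml), which bypass the receptor, for 1.5 h. Each of the 8 groups has 3 arrays, labelled A, B and C. Levels below are log2 intensities after background correction and quantile normalization, and differences between groups are on the same log2 scale. The study states that its arrays came from 3 pairs of WT and KO mice, but the labels tie the letters to no mouse or culture. The main model took all arrays as independent, so p-values measure the spread between these samples only.

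The arrays detected 8047 to 10689 probes each, 52 to 64 of them translation factor probes. The level of Pbrm1 was lower in KO cells of every state, by 1.00 in resting Naïve cells (adjusted p = 0.113, limma), 1.6 in stimulated Naïve cells (0.00673), 1.83 in resting Th2 cells (0.000876) and 1.39 in stimulated Th2 cells (0.0132); where its probe lies relative to the deleted exon was not determined. CD4 T cell markers were detected on all arrays of every group (6 of 6 genes), and a list of 7 Th2 genes averaged 5.23 to 5.50 in resting Naïve and 8.11 to 8.39 in stimulated Th2 cells. Of 7 activation genes, 6 had a probe on the array, and their mean level was 7.2 to 7.72 in resting Naïve, 7.61 to 7.92 in stimulated Naïve, 5.69 to 6.33 in resting Th2 and 8.02 to 8.34 in stimulated Th2 cells. The early activation genes Cd69 and Egr1 were higher in resting than in stimulated Naïve cells, at 11.74 and 11.50 against 10.29 and 10.48 in WT, and were at 7.42 and 6.31 in WT resting Th2 cells, while Il2ra, the IL-2 receptor chain, was at 5.29 in WT resting and 8.24 in WT stimulated Naïve cells. The resting Naïve samples thus held transcripts of activation, whose part in the results below was not tested. Other cells were also seen, and their myeloid, B cell and erythroid markers were highest in resting Naïve samples. Of 6 myeloid markers, 5 were detected on all 3 arrays of both genotypes there and at most 1 in any other group, and their mean level was 6.67 to 8.25 in resting Naïve against 4.26 to 4.65 in the other states. For 6 B cell markers it was 7.26 to 8.12 against 4.89 to 6.73, and for 3 erythroid markers 5.51 to 8.52 against 4.32 to 5.62. These cells are part of every comparison with resting Naïve cells below, and their part in those results was not tested. Fewer cells of a type and less RNA per cell cannot be told apart in such samples. Of 2 CD8 T cell markers, Cd8a was detected in no group. Cd8b1 was detected on all 3 arrays of every group, Th2 cells included, at group means of 6.9 to 8.43, and its source was not tested. The 4 KO C arrays had Xist, the X inactivation transcript, at 8.46 to 8.66, while the other KO arrays had at most 4.48, and Ddx3y, a Y-linked gene, at 4.88 to 6.05 against 8.06 to 9.84 on the other KO arrays, so these samples did not match the others in sex.

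The probes of several genes are shown first because the results turn on them: after quantile normalization Eif4ebp1 and its paralog Eif4ebp2, and Eif4a1 and its paralog Eif4a2, differed in direction on stimulation, and the probes of Eif5 and of Eef1d did not read alike. The lines give the first 30 of 50 bases of each probe as deposited, 5′ to 3′ and in lower case. The longest run of bases that an Eif4a1 and an Eif4a2 probe have in common is 5 to 7 bases over the 4 pairs.
Eif4ebp1: ggctgggttacctgggaaagccacactttt
Eif4ebp2: gagagcagcacaggctaagacagtgtattc
Eif4a1, brighter probe: acaaggctggcctcatttgctggaccaaat
Eif4a1, second probe: aacacctccattgaagagatgcccctcaac
Eif4a2, brighter probe: gtgaactggaccctgttgctaagcctcagc
Eif4a2, second probe: catcatgagggaattccgatcagggtcaag
Eif5, brightest probe: cacttaggaaggtcttgggcttctgttcat
Eif5, second probe: gtcagagaccgagaactcttgcagtcgttt
Eif5, dimmest probe: ctccaagatcccacacatcctgaaggagat
Eef1d, brighter probe: tgtggtggaggatgacaaagtgggcaccga
Eef1d, second probe: ttcctggatacctgataccctcttctggcc

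Promoter windows of genes described below are shown because several hold an E-box, CACGTG, the element bound by MYC and related factors. The windows are RefSeq sequence of the mouse build GRCm38.p6 on the strand of the gene, 100 bases each, with the E-box in capitals. Those of Eif5a (chr11:69921387-69921486, minus strand), Eif4g1 (chr16:20672627-20672726, plus strand), Eif3f (chr7:108934315-108934414, plus strand), Eif4a2 (chr16:23107368-23107467, plus strand) and Eif4ebp2 (chr10:61452670-61452769, minus strand) end at the base before a start site. Eif5a has 6 start sites in the table, and the window shown belongs to the one listed second, which lies inside the gene (chr11:69916712-69921958). Each of the other genes has 1. The window of Eif4ebp2 also lies inside its gene (chr10:61428491-61452790), and the window of Eif4g1 ends inside its gene (chr16:20672720-20692883). That of Eif4a1 (chr11:69672524-69672623, minus strand) spans bases -200 to -101.
Eif5a: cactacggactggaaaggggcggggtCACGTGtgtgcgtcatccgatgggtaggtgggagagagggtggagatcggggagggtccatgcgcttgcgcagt
Eif4a1: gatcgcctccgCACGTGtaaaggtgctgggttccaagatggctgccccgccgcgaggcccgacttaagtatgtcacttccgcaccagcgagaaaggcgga
Eif4g1: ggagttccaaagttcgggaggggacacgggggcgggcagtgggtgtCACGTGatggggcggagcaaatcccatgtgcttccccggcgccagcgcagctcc
Eif3f: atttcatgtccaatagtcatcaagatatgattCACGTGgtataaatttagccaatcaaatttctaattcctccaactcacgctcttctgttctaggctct
Eif4a2: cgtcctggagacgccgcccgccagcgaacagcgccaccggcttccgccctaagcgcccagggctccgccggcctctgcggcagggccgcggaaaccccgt
Eif4ebp2: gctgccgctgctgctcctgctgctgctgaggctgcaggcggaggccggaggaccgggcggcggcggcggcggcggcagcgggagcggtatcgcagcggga
In the windows from 250 bases before to 50 bases after the start site, CACGTG (the same on both strands) was found in 8 of the 32 translation factor genes with a kept probe and a window in the table, or 25%: Eef2, Eef2k, Eif3a, Eif3f, Eif4a1, Eif4e, Eif4g1 and Eif5a. It was found in 2187 of the 27025 genes of the table (8.09%). Within the translation factors it did not follow the direction of the response to stimulation described next: it stood in 4 of 17 genes that rose in WT Naïve cells (23.5%), 1 of 4 that fell (25%) and 3 of 11 that were not called (27.3%). A match describes the sequence and shows no binding.

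Stimulation of Naïve cells raised more than 20 of the 41 translation factor genes in both genotypes. In WT cells 38 of the 68 probes (55.9%) were called higher at an adjusted p below 0.05 (limma, Benjamini-Hochberg over all kept probes), while 23.6% of all kept probes were, and 5 (7.35%) were called lower, while 20% of all kept probes were. In KO cells 37 were higher (22.3% of all kept probes) and 4 lower (19.3%). The median difference of the 68 probes was 0.75 in WT and 0.76 in KO cells, and that of all kept probes was 0.01 and 0.02. Counted by the brightest probe of each gene, 23 of 41 genes rose and 4 fell in either genotype. Both genotypes shared 36 of the higher probes, which is all but 2 of the WT and all but 1 of the KO calls. When arrays were scaled to a common median in place of quantile normalization, 44 probes were higher in WT and 45 in KO cells and none was lower, so the falls named below are relative to the other genes on the array.

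**Figure D1:**
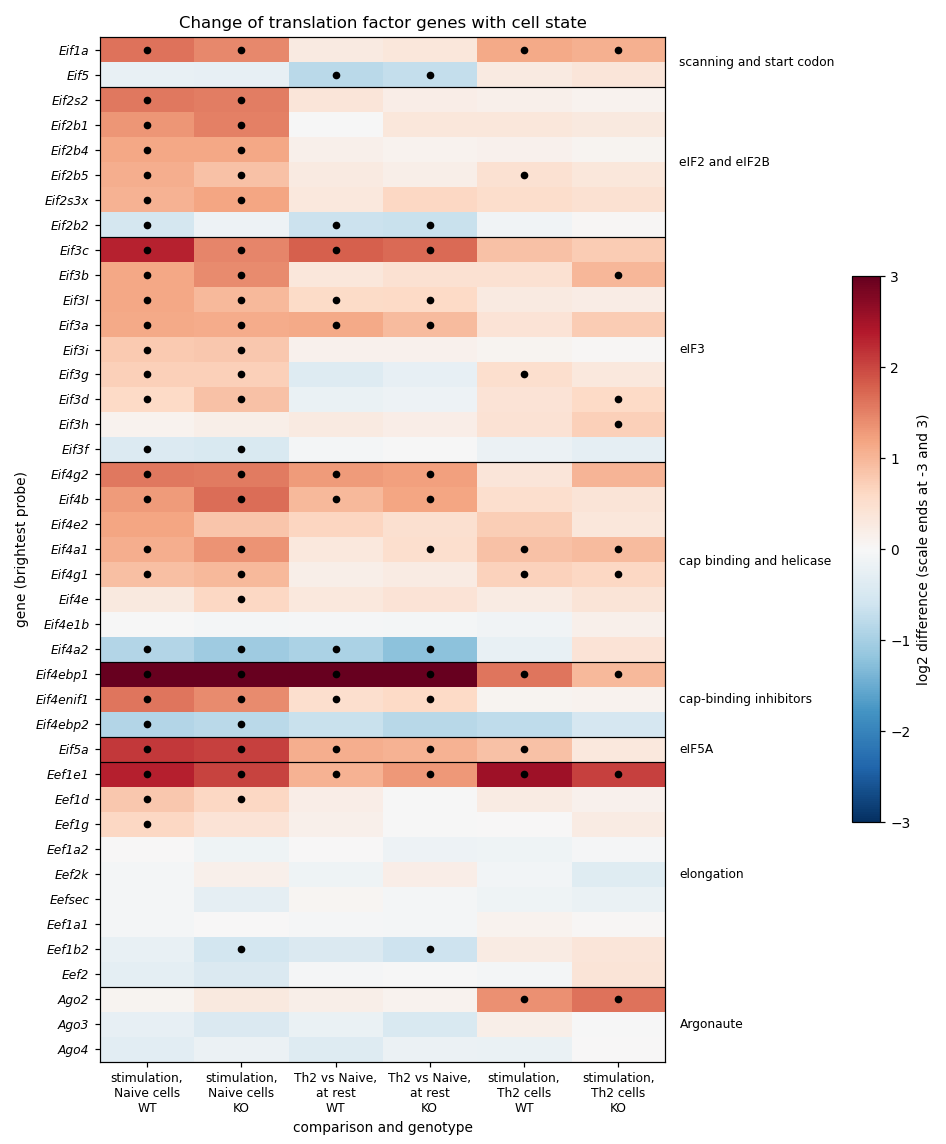
Log2 differences of 41 translation factor genes (rows, brightest probe, grouped by role) in 3 comparisons between cell states and 2 genotypes (columns), with 3 arrays per group; red is higher in the first-named state, and a dot marks an adjusted p below 0.05 in limma. Dots are most frequent on stimulation of Naïve cells, where 23 genes were called higher in WT and 23 in KO cells; the few blue cells with a dot change sign or lose their call under median scaling.

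The cap-binding inhibitors gave the widest range. Eif4ebp1, which encodes 4E-BP1, read 4.65, 5.57 and 5.35 on the WT resting Naïve arrays A, B and C and 8.37, 8.44 and 9.17 on the stimulated ones. In KO cells it went from 4.52, 4.52 and 5.25 to 7.73, 9.39 and 9.02. No resting array reached any stimulated one, and at rest the probe was detected on only 2 of 3 WT and 1 of 3 KO arrays, so the resting level lies at the edge of detection and the size of the rise is uncertain. The difference was 3.47 ± 0.35 (SE, n = 3 per group) in WT cells with an adjusted p of 9.64e-08, and 3.95 ± 0.35 in KO cells with an adjusted p of 1.68e-08 (limma), and under median scaling it was 3.95 and 4.41.

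Its paralog Eif4ebp2 moved the other way. It read 9.01, 8.26 and 7.98 on WT resting arrays and 7.54, 7.45 and 7.63 after stimulation, without overlap, whereas the KO arrays read 8.08, 8.54 and 8.45 at rest and 8.20, 7.0 and 7.44 after it, with stimulated array A inside the resting range. It fell by 0.87 in WT (adjusted p = 0.0321, limma) and 0.81 in KO cells (0.0481), but read 0.15 and 0.21 higher under median scaling. Eif4enif1 encodes 4E-T, which binds eIF4E and carries it into the nucleus and to P-bodies. It rose by 1.62 ± 0.19 in WT and 1.41 ± 0.19 in KO cells, and its second probe by 0.93 and 1.07.

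Among the cap-binding and helicase genes 4 of 8 rose and 1 fell in WT cells, and 5 rose and 1 fell in KO cells. The DEAD-box helicases eIF4A1 and eIF4A2, close paralogs that both serve the cap-binding complex, parted. Eif4a1 read 10.84, 10.93 and 10.85 on WT resting arrays and 11.82, 12.10 and 11.96 on stimulated ones. Eif4a2 read 12.03, 11.59 and 11.78 at rest and 10.49, 11.22 and 11.05 after stimulation. The groups did not overlap for either gene, Eif4a1 being higher and Eif4a2 lower on every stimulated array. Eif4a1 rose by 1.09 ± 0.13 (2.13-fold, adjusted p = 9.16e-07, limma) in WT and 1.34 ± 0.13 in KO cells, and its second probe by 1.55 and 1.96. Eif4a2 fell by 0.88 ± 0.32 in WT (1.84-fold, adjusted p = 0.0305) and 1.06 ± 0.32 in KO cells (0.0106), but read 0.26 and 0.02 higher under median scaling. The second Eif4a2 probe was 0.78 lower in WT (0.00472) and 0.24 lower in KO cells, where it did not pass (0.393).

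The other members of this group were the scaffolds and the cap binders themselves. Eif4g1 rose by 0.91 in WT and 0.96 in KO cells, and Eif4g2, a related scaffold that lacks the part binding eIF4E, by 1.58 and 1.56 on its brighter probe. Eif4b, a cofactor of the helicase, rose by 1.27 and 1.68. Eif4e itself lay near the limit of detection, at 4.19 to 4.23 on the WT resting arrays and 4.46 to 4.57 after stimulation, and none of these WT arrays detected it. Its difference was 0.30 in WT (adjusted p = 0.151, limma) and 0.63 in KO cells (0.00419). In KO cells it was detected on no resting array and on 2 stimulated ones, and the measured bound is at least 1.04-fold. The 4E homolog Eif4e2 had probes that differed. Its brightest did not pass in either genotype, while another, not detected on any resting Naïve array, was at least 1.87-fold higher in WT and at least 2.17-fold higher in KO cells.

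**Figure D2:**
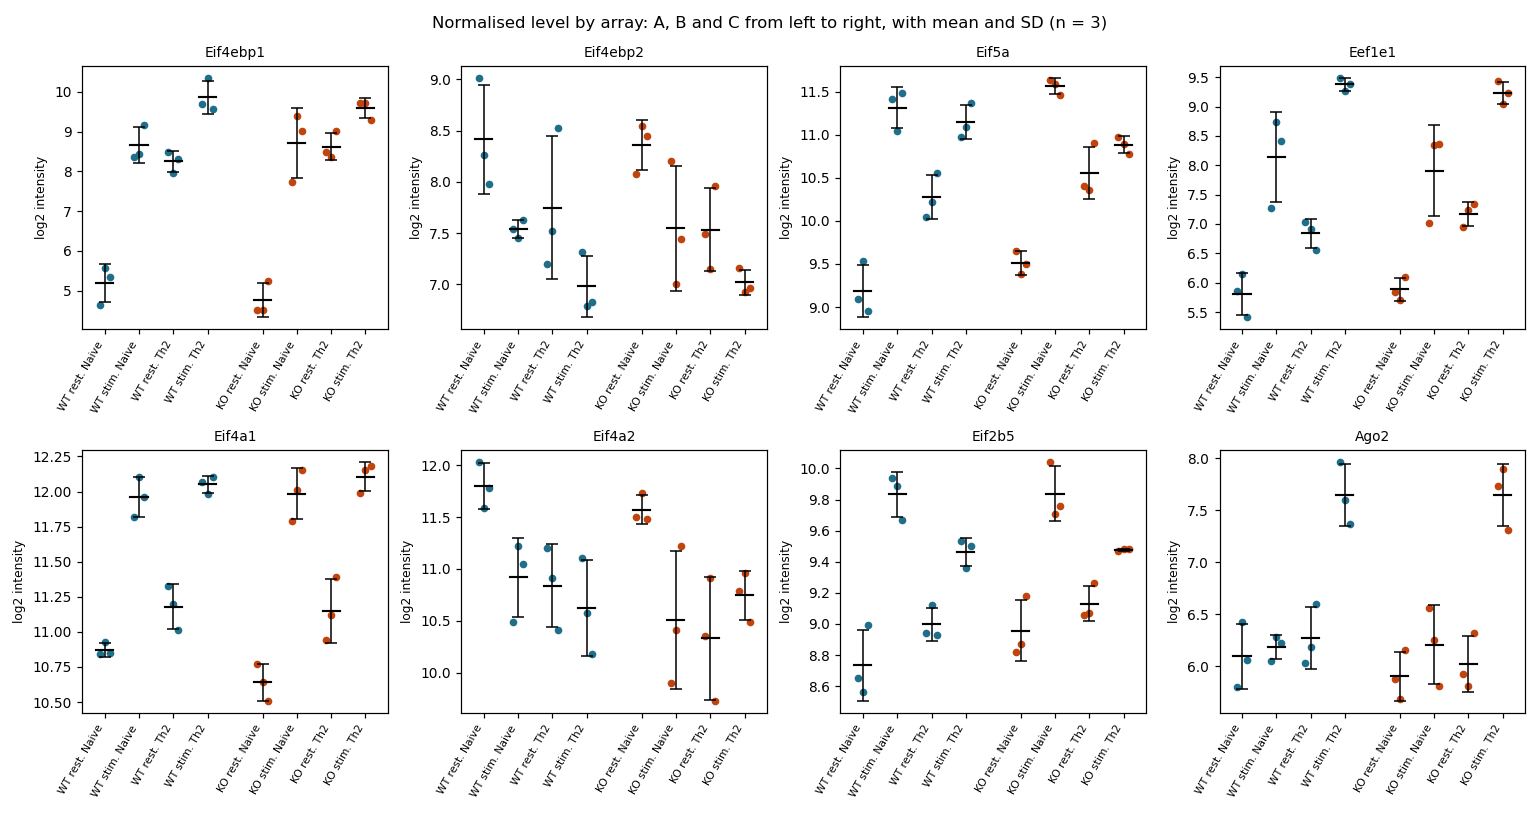
Log2 intensity of 8 genes on each of 24 arrays (points, replicates A, B and C from left to right; blue WT, orange KO), with the mean and SD of each group of 3. Eif4ebp1 sits between 4.52 and 5.57 on the 6 resting Naïve arrays and above 7.7 on all others, and Ago2 stands apart only in stimulated Th2 cells, at 7.31 to 7.96.

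The subunits of eIF2 and its exchange factor eIF2B rose together, 5 of 6 genes in either genotype. Eif2s2 (eIF2β) rose by 1.59 in WT and 1.53 in KO cells, Eif2b1 by 1.31 and 1.51, Eif2b4 by 1.17 in both, and Eif2s3x (eIF2γ) by 1.05 and 1.19. Eif2b5, the catalytic subunit of eIF2B, read 8.65, 8.56 and 8.99 on WT resting arrays and 9.94, 9.89 and 9.67 on stimulated ones. It was higher on each stimulated array, and the rise was 1.1 ± 0.13 (2.14-fold) in WT and 0.88 ± 0.13 in KO cells; its other probes rose by 0.99 and 1.03 in WT cells. Eif2b2, another eIF2B subunit, was the exception. It fell by 0.52 in WT cells (adjusted p = 0.0277, limma) and was 0.16 lower in KO cells without passing (0.54), and under median scaling it read 0.47 and 0.83 higher.

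Of 9 genes of eIF3, the large scaffold on the small ribosomal subunit, 7 rose and 1 fell in either genotype. Eif3c read 6.13, 5.03 and 5.89 on WT resting arrays and 7.11, 9.02 and 7.87 on stimulated ones. The groups did not overlap but the stimulated arrays spread widely, and the rise was 2.31 ± 0.44 (4.98-fold) in WT and 1.47 ± 0.44 in KO cells. The rises of Eif3a, Eif3b and Eif3l were 1.13, 1.17 and 1.16 in WT cells. Eif3f read 12.24, 12.47 and 12.87 on WT resting arrays and 12.09, 12.13 and 12.12 after stimulation. It fell by 0.41 in WT (adjusted p = 0.04, limma) and 0.46 in KO cells (0.0228), but read 0.60 and 0.54 higher under median scaling.

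Eif5a, which encodes eIF5A, the factor that carries hypusine and helps ribosomes through difficult peptide bonds, had the smallest adjusted p of the WT rises. It read 9.09, 9.53 and 8.95 on WT resting arrays and 11.41, 11.05 and 11.49 on stimulated ones, and in KO cells 9.65, 9.38 and 9.50 against 11.64, 11.59 and 11.46. The stimulated arrays were all higher, by 2.13 ± 0.18 (4.37-fold, adjusted p = 6.68e-09, limma) in WT and 2.05 ± 0.18 (4.14-fold) in KO cells, and the second probe gave 2.08 and 2.36. Eif1a, the eIF1A gene, which acts in scanning, rose by 1.64 in WT and 1.44 in KO cells.

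Of the 9 elongation factor genes 3 were higher in WT cells, and 2 were higher and 1 lower in KO cells. Eef1e1 (p18, also called AIMP3) is named as an elongation factor but is known as an auxiliary protein of the aminoacyl-tRNA synthetase complex. It read 5.86, 6.14 and 5.42 on WT resting arrays and 7.27, 8.74 and 8.41 on stimulated ones. All stimulated arrays lay above all resting ones, and the rise was 2.33 ± 0.33 (5.04-fold) in WT and 2.02 ± 0.33 in KO cells. Eef1d, a subunit of the exchange factor eEF1B, rose by 0.80 in WT and 0.63 in KO cells on its brighter probe; its second probe, not detected at rest, was at least 3.65-fold higher in WT and at least 4.73-fold higher in KO cells. Eef1g, another eEF1B subunit, rose by 0.62 in WT cells and was 0.42 higher in KO cells without passing. The brightest probe of Eef1b2 fell by 0.56 in KO cells, where the arrays of the groups overlapped, and was 0.23 lower in WT cells without passing, while its other probes were 0.21 and 0.30 higher in KO cells, neither of which passed (0.642 and 0.577).

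Eef1a1, Eef1a2, Eef2 and Eef2k were not called in any comparison between states after quantile normalization. Under median scaling Eef2 was called higher in Th2 than in Naïve cells at rest, by 0.99 in WT (adjusted p = 0.0436, limma) and 1.32 in KO cells (0.00592). Within-array Z-scores set each array to the same mean and SD, so their values are not differences of the normalized log2 levels. Under them Eef1a1 was called lower in both genotypes on stimulation of Naïve cells (-2.54 in WT and -2.35 in KO). It was also called lower in Th2 against Naïve cells at rest (-2.41 and -2.78). Under median scaling Eef1a1 read 0.25 and 0.21 higher in the first comparison and 0.12 and 0.23 higher in the second, and was not called. The intensities of Eef1a1, which delivers aminoacyl-tRNA, were 15790.6 to 26795 before normalization, near the highest of any probe (19089.9 to 33316 over the arrays), where a change can be compressed. Its quantile-normalized level was 14.24 to 14.64 on all arrays. Eef2, the translocase, read 10.51, 10.54 and 10.96 on WT resting Naïve arrays and 9.85, 11.14 and 10.14 on stimulated ones, so that stimulated arrays lay on either side of the resting range. Eef2k, the kinase that inhibits eEF2, and Eef1a2, the muscle and neuronal form of eEF1A, were detected on few arrays.

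**Figure D3:**
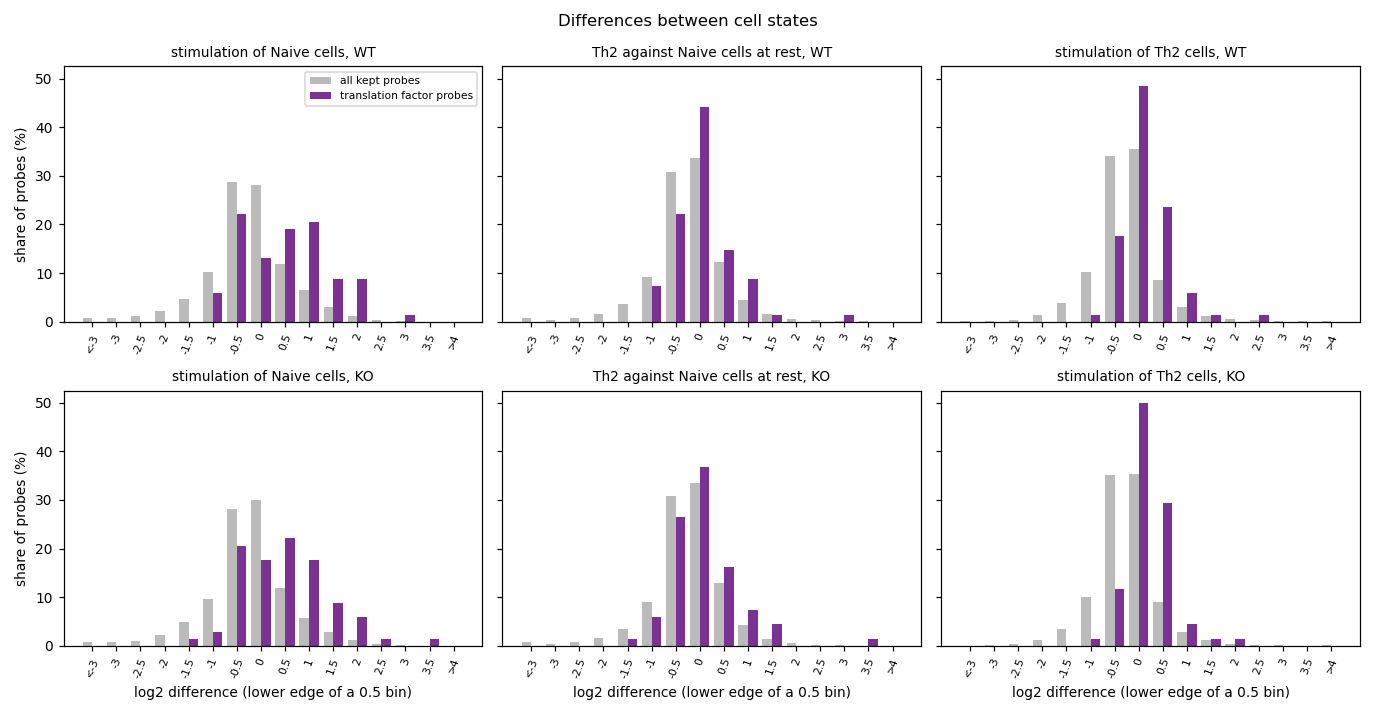
Share of probes (%) in bins of the log2 difference, 0.5 wide, for all 14246 kept probes (grey) and the 68 translation factor probes (purple), by comparison (columns) and genotype (rows). On stimulation of Naïve cells 38.2% of the WT translation factor probes were called higher by 1 or more, against 11.3% of all kept probes, and none was called lower by 1 or more, against 9.44%.

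Resting Th2 cells were next set against resting Naïve cells; this comparison and the stimulation of Naïve cells share the same resting Naïve arrays. In WT cells 15 of 68 probes were higher (18.5% of all kept probes) and 4 lower (16%), and in KO cells 18 were higher (18.8%) and 4 lower (15.9%). The shares of higher probes, 22.1% and 26.5%, were thus near those of all kept probes. The median difference was 0.20 in WT and 0.18 in KO cells, against 0.029 and 0.035 over all kept probes. All 15 WT probes were also called in KO cells. Median scaling gave 33 higher probes in WT and 49 in KO cells and none lower. Leaving out the 4 KO C arrays left 10 higher and 3 lower in KO cells.

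By gene 9 were higher and 3 lower in WT cells, and 10 and 4 in KO cells. Eif4ebp1 read 8.49, 7.97 and 8.30 in WT and 8.49, 8.37 and 9.01 in KO resting Th2 cells, all far above the resting Naïve arrays given above. It was 3.07 ± 0.35 higher in WT (adjusted p = 9.08e-07, limma) and 3.86 ± 0.35 in KO cells, and 3.40 and 4.52 higher under median scaling, against the same resting level at the edge of detection. Eif3c was higher by 1.79 in WT and 1.69 in KO cells, Eif4g2 by 1.27 and 1.22, Eif3a by 1.14 and 0.95, and Eif5a by 1.08 and 1.04. Eif4a1 was 0.31 higher in WT cells without passing (0.0757) and 0.51 higher in KO cells (0.00466), a direction that within-array Z-scores turned to -0.04. Eif4a2 was lower by 0.96 in WT and 1.24 in KO cells, but under median scaling it was 0.009 lower in WT and 0.05 higher in KO cells. Eif2b2 was lower by 0.64 and 0.66, but 0.25 and 0.54 higher under median scaling.

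The brightest probe of Eif5, the factor that triggers GTP hydrolysis on eIF2 at the start codon, was lower in resting Th2 than in resting Naïve cells by 0.81 in WT and 0.71 in KO cells, but 0.12 and 0.55 higher under median scaling. Its probes did not read alike. On stimulation of WT Naïve cells the brightest changed by -0.23 without passing, while the second rose by 0.68 and the remaining one by 1.25. In KO resting Th2 cells the brightest was called lower and the remaining one higher, by 0.60 (adjusted p = 0.0431, limma), which made Eif5 the only one of the 20 genes with several kept probes that was called both ways in a comparison between states. Called or not, all probes of a gene had the same sign in 13 of the 20 genes in WT and 11 in KO cells in Th2 against Naïve cells. On stimulation of Naïve cells they did in 17 and 16. The 3 probes of Eef2 moved together, and the spread of its arrays within a group was wide. In KO stimulated Th2 cells they read 10.50, 11.52 and 9.63 on the brightest probe, 9.91, 11.01 and 8.98 on the second and 9.55, 10.41 and 8.45 on the dimmest, array B being the highest and C the lowest on each.

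**Figure D4:**
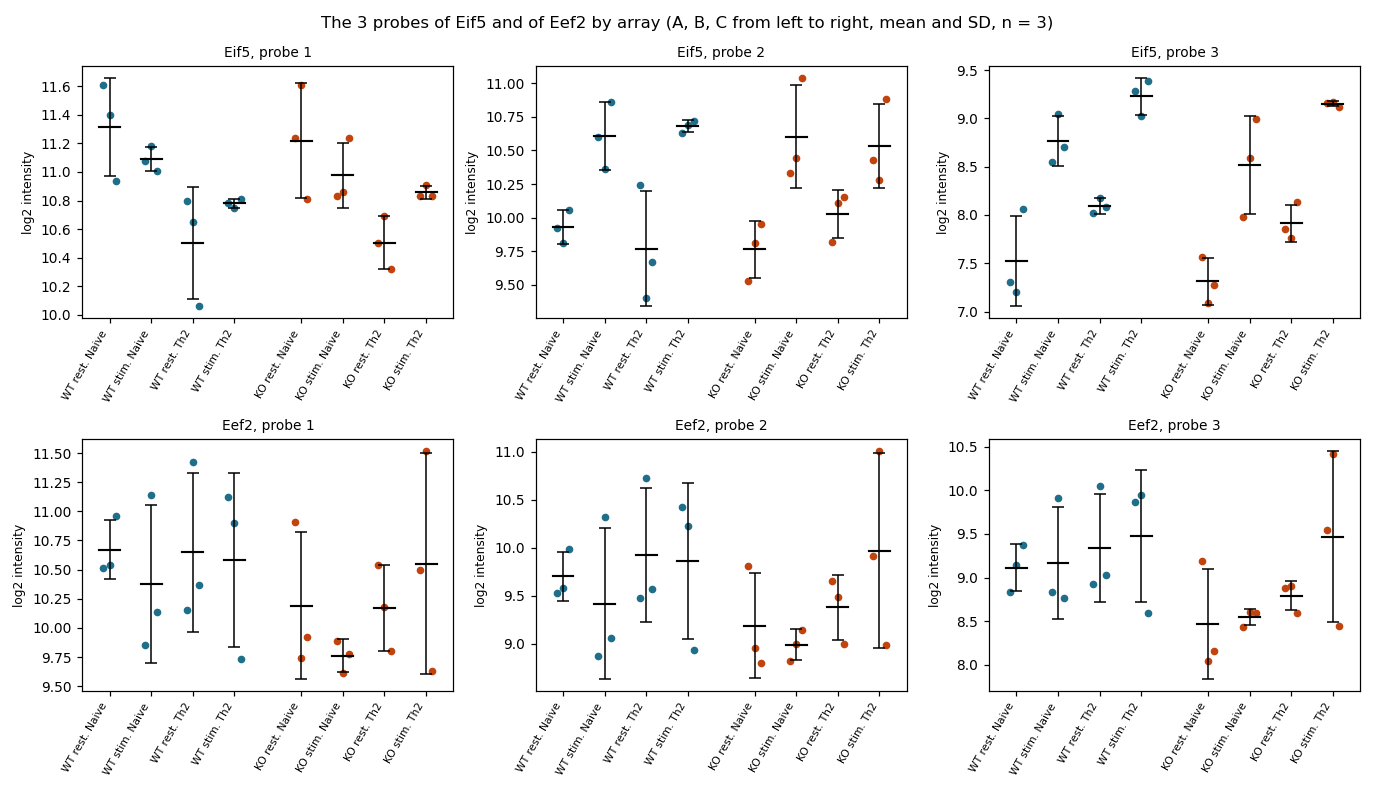
Log2 intensity of the 3 kept probes of Eif5 (top) and Eef2 (bottom) on each of 24 arrays (points, replicates A, B and C from left to right; blue WT, orange KO), with the mean and SD of each group of 3. The Eif5 probes order the states differently, whereas the Eef2 probes show the same arrays high and low, such as KO stimulated Th2 B at 11.52, 11.01 and 10.41.

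Stimulation of Th2 cells with PMA and ionomycin for 1.5 h raised fewer translation factors and lowered none. In WT cells 17 of 68 probes (25%) were higher, against 13% of all kept probes, and in KO cells 17 were higher, against 12%. None was lower in either, while 14.3% and 13.8% of all kept probes were. At an unadjusted p below 0.05 in limma 1 probe was lower in each genotype, Eif4ebp2 in WT and Eef2k in KO cells. The median difference was 0.34 in WT and 0.35 in KO cells, against 0.00 over all kept probes; under median scaling it was 0.62 in WT and -0.07 in KO cells, against 0.048 and -0.19 over all kept probes. Both genotypes shared 12 of their 17 calls. Under median scaling 9 probes were higher in WT cells, and 3 were higher and 1, Eif4ebp2, lower in KO cells. The KO count fell to 8 without the KO resting Th2 array B and to 9 without the KO stimulated Th2 array B. This comparison shares its resting Th2 arrays with the preceding one.

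By gene 9 rose in either genotype. Eef1e1 read 7.04, 6.92 and 6.56 on WT resting Th2 arrays and 9.48, 9.27 and 9.38 after stimulation, without overlap. It rose by 2.54 ± 0.33 (5.79-fold, adjusted p = 4.85e-06, limma) in WT and 2.06 ± 0.33 (4.16-fold) in KO cells. Eif4ebp1 read 9.69, 10.34 and 9.56 on the stimulated WT arrays, above all resting ones, and rose by 1.6 (3.04-fold, adjusted p = 0.00148) in WT and 0.96 (1.95-fold, 0.0482) in KO cells, where it did not pass under median scaling (0.41, adjusted p = 0.666). Eif4a1 rose by 0.87 and 0.96, Eif4g1 by 0.68 and 0.63, and Eif1a by 1.14 and 1.07. Under median scaling none of the 3 passed in KO cells, where they read 0.59, 0.086 and 0.53 higher (adjusted p = 0.269, 0.908 and 0.387, limma), and Eif4g1 did not pass in WT cells either (0.0811). Eif5a rose by 0.87 in WT cells and was 0.33 higher in KO cells without passing on its brighter probe (0.205; 0.15 lower under median scaling), while its second probe rose in both, by 0.65 and 0.73. Eif4a2 was 0.22 lower in WT and 0.42 higher in KO cells, neither of which passed, and Eif4ebp2 was 0.77 and 0.51 lower, again without passing (0.0841 and 0.285); under median scaling it was 1.08 lower in KO cells and was called (0.0471).

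Ago2, the Argonaute that can cleave its target and a member here by its old symbol, rose in this comparison and was not called in the other comparisons between states. It read 6.03, 6.18 and 6.6 on WT resting Th2 arrays and 7.96, 7.60 and 7.37 after stimulation, and in KO cells 5.92, 5.81 and 6.32 against 7.73, 7.89 and 7.31. All 6 stimulated arrays lay above all 6 resting ones. The rise was 1.37 ± 0.22 (2.59-fold, adjusted p = 6.77e-05, limma) in WT and 1.63 ± 0.22 (3.09-fold, 1.12e-05) in KO cells. After stimulation of Naïve cells the difference of Ago2 was 0.09 in WT and 0.30 in KO cells, and neither passed. No probe of Ago3 or Ago4 was called in any comparison between states.

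The responses of Th2 and Naïve cells were set against each other as a difference of differences, a contrast added after the values had been seen and between protocols that differ in agent and time. In WT cells 2 of 68 probes had a higher response in Th2 cells (11.1% of all kept probes) and 17 a lower one (14%); in KO cells 4 were higher (11.7%) and 17 lower (14.8%). Eif4ebp1 responded less in Th2 cells by 1.87 in WT and 2.98 in KO cells, Eif5a by 1.25 and 1.72, Eif4enif1 by 1.54 and 1.30, and Eif2s2 by 1.43 and 1.42. Of the eIF2B genes Eif2b1, Eif2b4 and Eif2b5 were also lower in both genotypes, by 0.53 to 1.21. In WT cells Eif4ebp1 and these 3 did not pass under median scaling (adjusted p = 0.0675 to 0.103, limma). Ago2 responded more by 1.29 in WT and 1.33 in KO cells, which did not pass under median scaling (0.83 and 0.17). The other higher calls, chosen for mention after their values were seen, were the second Eif4a2 probe in both genotypes (0.98 and 0.90) and, in KO cells only, the brighter Eif4a2 probe (1.47) and Eef1b2 (0.91), of which the last pair read -0.10 and -0.73 under median scaling. Under median scaling 9 probes were lower in WT and 37 in KO cells and none was higher. The highest mean level lay in stimulated Naïve cells for 17 of 41 genes in WT and 16 in KO cells. It lay in resting Naïve cells for 11 in each genotype, in stimulated Th2 cells for 12 and 13, and in resting Th2 cells for 1 in each. These counts include genes detected on few arrays. They were not computed for all genes on the array, so they show no trait particular to the translation factors.

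No translation factor probe was called as changed between WT and KO cells in the model without a replicate block, and 1, the second Eif4a2 probe in resting Naïve cells, was called lower in KO cells with the replicate letter as a block (adjusted p = 0.281, limma). A genotype difference was called by the 4 criteria of the study's methods: a false discovery rate under 0.3, an unadjusted p under 0.05, a positive mean signal, and a Z-ratio of more than 1.5 in size, the Z-ratio being the difference in units of the SD that the differences of all probes have. The methods apply them to Z-scores and to a p for the replicates' Z-scores, whereas here they were applied to the log2 differences and to the p and false discovery rate of limma. The signal criterion of the methods concerns background-corrected intensity. Here it was applied to the mean normalized log2 level, which is positive for every kept probe, so it excluded none. Without the block none of the 68 probes met them in any of the 4 states. Few probes did at all, 0.653% of those kept in resting Naïve, 0.0772% in stimulated Naïve, 0.0842% in resting Th2 and 0.0913% in stimulated Th2 cells, so that 0 of 68 is near the background. The study, with its own processing, reported many more genes as changed in at least 1 condition. It also reported gene sets of ribosome biogenesis and translation as increased in stimulated KO Th2 cells. Gene sets were not tested here. At an unadjusted p below 0.05 (limma) 2 of the 68 probes differed in resting Naïve, 1 in resting Th2 and 0 in either stimulated state, while 6.79%, 3.45%, 2.25% and 2.72% of all kept probes did. The median difference, KO minus WT, was -0.05 in resting Naïve, -0.01 in stimulated Naïve, -0.03 in resting Th2 and 0.01 in stimulated Th2 cells. Under median scaling it was 0.05, 0.11, 0.39 and -0.29 in the same order, against 0.032, 0.05, 0.23 and -0.16 over all kept probes, so the direction is not settled in any state.

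**Figure D5:**
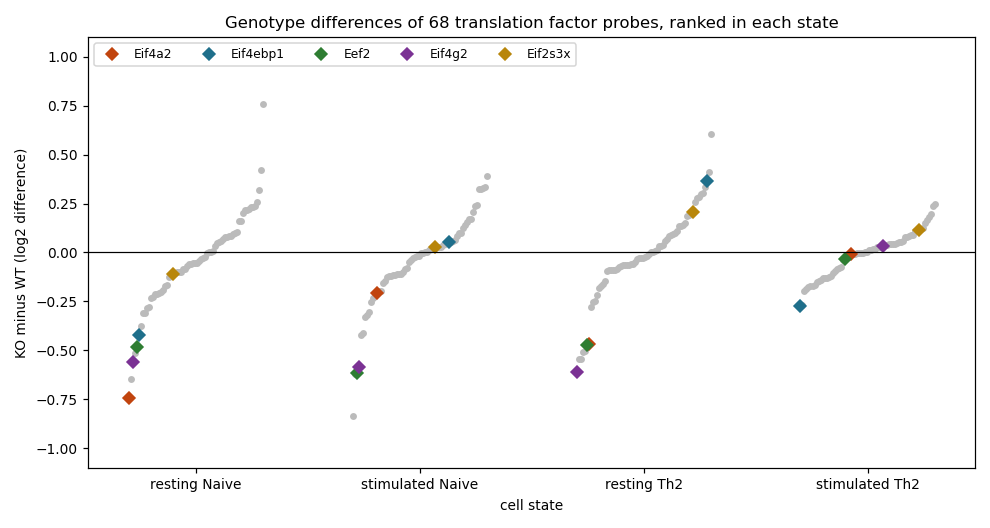
KO minus WT log2 difference of each of the 68 translation factor probes (points), ranked from lowest to highest within each of 4 cell states, with 5 genes marked (the brightest probe, except for Eif4a2, for which the second probe is marked). No probe was called in any state in the model without a replicate block, and the second Eif4a2 probe lies lowest in resting Naïve cells at -0.74.

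The smallest p belonged to the second probe of Eif4a2 in resting Naïve cells. It read 9.97, 9.88 and 10.10 on the WT arrays A, B and C and 9.37, 9.24 and 9.12 on the KO arrays, so that every KO array lay below every WT one. The difference was -0.74 ± 0.21 with an adjusted p of 0.304 (limma), just above the limit of 0.3. With the replicate letter as a block the adjusted p was 0.281, and it was then the only translation factor probe called. Under median scaling the difference was -0.53 and was not called. Without the 4 KO C arrays it was -0.68 and was not called either (adjusted p = 0.34, limma). The difference of the same probe was -0.47 in resting Th2 cells (adjusted p = 1; 0.07 under median scaling). The brighter Eif4a2 probe, at 12.03, 11.59 and 11.78 in WT and 11.50, 11.73 and 11.48 in KO resting Naïve cells, overlapped between the genotypes. Without WT array C of resting Naïve cells 4 probes were called, this one and probes of Ago3 (2) and Ago4, when 4.27% of all kept probes were. Without WT array B the second Eif4a2 probe alone was called (adjusted p = 0.291).

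The other probes with the smallest p had adjusted p-values of 0.722 to 1 in limma. In resting Naïve cells Eif3b differed by -0.38 and Eif5a by 0.32. In stimulated Naïve cells Eif4e differed by 0.33, Eif3c by -0.83 and Eif4enif1 by -0.32, and the Eif3c arrays of the genotypes overlapped (7.11, 9.02 and 7.87 in WT against 6.42, 7.53 and 7.54 in KO cells). Eif4e was not detected on the WT arrays of that state. In resting Th2 cells the second probe of Eif2b1 differed by 0.41 and Eef2k by 0.28, and in stimulated Th2 cells Eif5a by -0.27, Eef1d by -0.19 and Eif4e by 0.24. The brightest probe of Eef2 was 0.48 lower in resting Naïve, 0.62 lower in stimulated Naïve and 0.47 lower in resting Th2 KO cells and 0.03 lower in stimulated ones, none with an unadjusted p below 0.05. Eif2s3x, which lies on the X chromosome and is known to escape X inactivation, was highest of the 6 arrays on KO C in each state, at 8.13, 9.95, 9.02 and 9.38, and that array is the one with Xist.

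Whether the response to a state differed between genotypes was tested as an interaction. No translation factor probe and no kept probe was called in any of the 3 interactions, and at an unadjusted p below 0.05 (limma) 0, 0 and 2 translation factor probes differed in the stimulation of Naïve cells, the comparison of Th2 with Naïve cells at rest and the stimulation of Th2 cells, while 2.27%, 2.70% and 1.80% of all kept probes did. The 2 were Eif5a, whose response to stimulation in Th2 cells was 0.55 smaller in KO cells, and Eif3b, whose response was 0.53 larger, each with an adjusted p of 1; under median scaling the 2 responses were 1.38 and 0.30 smaller in KO cells, with adjusted p-values of 0.55 and 0.687. The larger Eif4ebp1 difference between Th2 and Naïve cells at rest in KO cells (by 0.79) also had an adjusted p of 1. With 3 arrays per group such differences could not be told from the spread between replicates.

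Other genes of protein synthesis were followed in lists chosen by function, which were not recomputed under other scalings. Of 35 regulators and factors of cytosolic translation with other names, 29 had a kept probe; 9 were higher and 4 lower on stimulation of WT Naïve cells, 5 and 4 in WT Th2 against Naïve cells at rest, and 9 and 4 on stimulation of WT Th2 cells. Of all kept probes 23.6% were higher and 20% lower, 18.5% and 16%, and 13% and 14.3% in these comparisons; the lists count 1 probe per gene. In KO cells 10 were higher and 5 lower, 7 and 4, and 9 and 4, while the shares of all kept probes were 22.3% and 19.3%, 18.8% and 15.9%, and 12% and 13.8%. Eif6, deposited as Itgb4bp, which keeps the ribosomal subunits apart, rose by 1.83 on stimulation of WT Naïve and 1.12 on stimulation of WT Th2 cells. Pdcd4, an inhibitor of eIF4A, was lower by 1.70 and 1.80 in the same comparisons. Ppp1r15a (GADD34), which brings a phosphatase to eIF2α, was lower by 3.41 after stimulation of WT Naïve cells and higher by 1.43 after stimulation of WT Th2 cells. Between the genotypes only Eif2ak2 (PKR), a kinase of eIF2, was called, 1.34 lower in KO stimulated Th2 cells (adjusted p = 0.249, limma). Of 9 mitochondrial translation factors 8 had a kept probe, and 6 rose and none fell on stimulation of WT Naïve cells, among them Tsfm (1.66), Gfm1 (1.48) and Tufm (1.47), the mitochondrial elongation factors. In KO cells 5 rose. In Th2 against Naïve cells at rest 3 were higher in either genotype, and on stimulation of Th2 cells 2 in WT and 0 in KO cells.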

How the data were processed

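The authors hybridized biotin-labelled cRNA from total RNA to Illumina MouseRef-8 v2 arrays and deposited the average intensity of each probe, neither normalized nor background-corrected, and a detection p-value. The submitters' processing notes name GenomeStudio 1.6.0. Intensities were corrected by normexp with a background inferred from the detection p-values and an offset of 16, quantile normalized and log2 transformed (neqc, limma 3.58.1, R 4.3.3). All 24 arrays entered 1 linear model of 8 group means (lmFit, eBayes; 16 residual degrees of freedom, 20.4 after moderation), with Benjamini-Hochberg adjustment over 14246 probes. Genes were named by Entrez ID (42 of 87 probes), RefSeq accession (42) or symbol (3). Replicate arrays correlated at 0.950 to 0.989. The study describes pairs of RNA from both genotypes. Deviations of same-lettered WT and KO arrays correlated at 0.302 (A), 0.136 (B) and 0.517 (C). The main model left this pairing out. The letters were read as pairs of WT and KO only in the alternative with the replicate letter as a block. The number of arrays limits the precision.

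The text names the 5 largest called rises and falls per WT comparison, the smallest p-values between genotypes, paralog families and key genes. The members and lists were chosen with earlier results of these data known. The model was run on simulated data drawn independently for each array, which cannot show how it handles paired samples. Alternatives were median scaling, within-array Z-scores, no background correction, other detection filters, fewer arrays in the fit, replicate blocks and leaving out each array.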

Additional observations from a re-analysis of the deposited data

How the results depend on the processing

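The counts of called translation factor probes stayed within 1.5 times of those reported in 113 of 124 settings other than leaving out 1 array. Median scaling gave 33 (WT) and 49 (KO) calls in Th2 against Naïve cells at rest, 9 and 4 on stimulation of Th2 cells, and 9 and 37 in the difference of the responses; the median difference of all kept probes was then 0.55 in KO cells in the first and -0.62 in the last. Dropping the false discovery rate from the criteria gave 2 calls between genotypes in resting Naïve and 1 in resting Th2 cells. The replicate block by letter gave 1 call in resting Naïve cells and changed no other call between genotypes. A block by letter within each genotype across states takes a letter as 1 mouse, which the labels do not say. Of 6 correlations of same-lettered arrays 5 were over 0.1 (0.038 to 0.203 in all). This block gave 44 and 41 calls on stimulation of Naïve cells. In Th2 against Naïve cells it gave 21 and 23, and on stimulation of Th2 cells 21 and 18. Leaving out the 4 KO C arrays, chosen after seeing the data, gave 13 calls in KO Th2 against Naïve cells and 13 in the KO difference of the responses.

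With 1 array left out, calls between genotypes ranged from 0 to 4 in resting Naïve and were 0 in the other states; they ranged from 37 to 42 (WT) and 35 to 43 (KO) on stimulation of Naïve cells, 14 to 21 and 15 to 21 in Th2 against Naïve cells, 15 to 20 and 8 to 16 on stimulation of Th2 cells, and 15 to 19 and 14 to 21 in the difference of the responses, with 0 interactions. Of 2285 values of named genes 21 changed sign where the value was called in either setting, and 36 where it was called in neither, 18 of them under median scaling. Under Z-scores the 21 were, in KO cells, Eef1a1 on stimulation of Naïve cells (-2.35), Eif4a1 in Th2 against Naïve cells (-0.042), and Eif3i (0.73) and Eef1d (0.36) in the difference of the responses. Under median scaling they were Eif4a2 (0.26 in WT, 0.018 in KO), Eif4ebp2 (0.15, 0.21), Eif2b2 (0.47, 0.83) and Eif3f (0.60, 0.54) on stimulation of Naïve cells, Eif5 (0.12, 0.55), Eif2b2 (0.25, 0.54), Eef2 (0.99, 1.32) and, in KO only, Eif4a2 (0.047) in Th2 against Naïve cells, and in the KO difference of the responses Eif4a2 (-0.10) and Eef1b2 (-0.73). The cause was not tested. Another 160 lost and 53 gained a call. A block by slide was not run, since no slide is named. Probes near background, such as Eif4e, and near the top of the range, such as Eef1a1, limit what can be seen.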

Other observations

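Several genes now named Eif or Eef were deposited under other symbols and so were not members. They include Eif6, which was also counted among the 35 regulators and factors of cytosolic translation above, so the lists overlap. Of 13 such genes 11 had a kept probe. On stimulation of WT Naïve cells 9 were higher and 1 lower, in WT Th2 against Naïve cells at rest 6 were higher and none lower, and on stimulation of WT Th2 cells 2 were higher and 1 lower; in KO cells the counts were 10 and 1, 7 and none, and 2 and 1. Of all kept probes 23.6% were higher and 20% lower, 18.5% and 16%, and 13% and 14.3% in WT cells, and 22.3% and 19.3%, 18.8% and 15.9%, and 12% and 13.8% in KO cells. Eif4e3, a cap-binding homolog of eIF4E deposited under a clone name, was the 1 lower gene. It was lower by 1.18 in WT and 0.97 in KO cells on stimulation of Naïve cells and by 1.93 and 2.33 on stimulation of Th2 cells, and higher by 1.02 and 1.59 in Th2 against Naïve cells at rest (adjusted p-values of 1.9e-05 to 0.0218, limma). Eif4a3, the helicase of the exon junction complex deposited as Ddx48, was higher by 0.47 in WT and 0.73 in KO cells on stimulation of Naïve cells, and Eif4h, a cofactor of eIF4A deposited as Wbscr1, by 0.73 and 0.62.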
